A study of Mus musculus with 6 samples.

Results

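The genes of cytochrome P450 families 1 to 3 (symbols of the form Cyp1a2, Cyp2d9 or Cyp3a11) were described through the accessible chromatin regions nearest to them in mouse liver nuclei. Peaks of 6 ATAC-seq libraries on chromosomes 1 to 19 and X were merged where they shared at least 1 bp, and a region was taken when, of the protein-coding genes up to 50 kb from its midpoint, the closest belonged to one of these families. This gave 360 of 109853 regions, linked to 52 of the 57 family genes in the RefSeq table. Of the 360 regions, 122 had a peak in all 6 libraries (33.9%, against 47.1% of all regions) and could be tested, and 78 had a peak in 1 library only.

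ATAC-seq marks open chromatin by the insertions of the Tn5 transposase. All animals were male and carried floxed alleles of Ncor1, which encodes a nuclear receptor corepressor, and of another gene. Controls received an adeno-associated virus (AAV) with eGFP and the double knockouts (dKO) an AAV with Cre recombinase, with 3 libraries each, and livers were taken on day 5 after the virus at zeitgeber time 10 h. Libraries were made from sorted nuclei that carry HNF4a, a transcription factor of hepatocytes. Whether each library came from its own animal is not given in the sources used here, so p-values reflect only how far these libraries spread, and that spread may be technical.

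Enzymes of families 1 to 3 are haem proteins of the endoplasmic reticulum that oxidise drugs, steroids, fatty acids and dietary chemicals, with electrons passed on by the reductase encoded by Por. Many of their genes stand in clusters of recently duplicated copies and are switched on in hepatocytes by ligand-bound receptors: AHR for Cyp1a, the nuclear receptor CAR (Nr1i3) for Cyp2b and PXR (Nr1i2) for Cyp3a, on a base of HNF4a and C/EBP factors. Several Cyp2 genes also differ between the sexes in mouse liver under the pattern of growth hormone.

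The 250 bases before the start of 4 genes are printed because peaks at or near these starts carry the results: Cyp2d9 had the smallest p of the regions over a start that were lower in dKO, Cyp1a2 and Cyp2a5 had a peak over the start in every control and no dKO library, and Cyp3a11 had a peak there in all 6 libraries that did not pass the test. The sequences are from RefSeq on GRCm38.p6, 5′ to 3′ on the gene's strand. They span chr15:82452127-82452376 (plus strand) for Cyp2d9, chr7:26835089-26835338 (plus) for Cyp2a5, chr9:57683656-57683905 (minus) for Cyp1a2 and chr5:145879855-145880104 (minus) for Cyp3a11. Capitals mark every match, on either strand, to the searched letters CAAAG, to the TATA box TATAAA and to the nuclear receptor motif AGGTCA.
Cyp2d9: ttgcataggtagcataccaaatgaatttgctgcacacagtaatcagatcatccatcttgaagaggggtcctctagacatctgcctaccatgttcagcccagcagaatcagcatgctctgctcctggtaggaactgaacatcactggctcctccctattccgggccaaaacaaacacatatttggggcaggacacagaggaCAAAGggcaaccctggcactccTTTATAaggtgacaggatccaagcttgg
Cyp2a5: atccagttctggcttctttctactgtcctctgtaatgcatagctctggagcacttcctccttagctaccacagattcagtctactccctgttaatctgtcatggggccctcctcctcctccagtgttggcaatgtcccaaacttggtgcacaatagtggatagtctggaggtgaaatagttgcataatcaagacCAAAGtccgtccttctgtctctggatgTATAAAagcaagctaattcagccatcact
Cyp1a2: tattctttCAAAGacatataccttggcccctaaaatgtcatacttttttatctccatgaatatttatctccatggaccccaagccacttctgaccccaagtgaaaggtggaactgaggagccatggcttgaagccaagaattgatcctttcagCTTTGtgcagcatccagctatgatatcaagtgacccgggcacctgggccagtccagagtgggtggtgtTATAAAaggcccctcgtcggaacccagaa
Cyp3a11: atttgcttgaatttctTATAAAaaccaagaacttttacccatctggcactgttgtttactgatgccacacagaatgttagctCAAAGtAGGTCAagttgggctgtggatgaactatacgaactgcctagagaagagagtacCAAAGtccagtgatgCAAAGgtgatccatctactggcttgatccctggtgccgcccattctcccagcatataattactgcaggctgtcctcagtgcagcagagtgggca

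CAAAG is found at the centre of many HNF4 sites, and AGGTCA is the unit from which the sites of many nuclear receptors are built. CAAAG and TATAAA were added after these sequences were seen. TATAAA began 29 bases before the start on the gene's strand in both Cyp2a5 and Cyp1a2, and 234 bases before it in Cyp3a11. In Cyp2d9 the gene's strand reads TTTATA, a match on the other strand, from 28 bases before the start. Cyp2d9 and Cyp2a5 each held 1 CAAAG, Cyp1a2 held 2 and Cyp3a11 held 3, and only Cyp3a11 of these 4 held an AGGTCA, which began 162 bases before the start. Over windows of 250 bases before to 50 after a start, which for 50 family genes gave 53 windows, CAAAG was found in 84.9% against 48.7% of 32619 windows of all genes, and TATAAA in 43.4% against 12.4%. AGGTCA was in 30.2% against 14.1%, the glucocorticoid receptor motif TGTTCT in 26.4% against 16.1% and the AHR core GCGTG in 17.0% against 28.3%. The CEBP-like palindrome TTGCGCAA and a pair of AGGTCA units in the same orientation with 1 or 4 bases between were in 0 of the 53 windows, and in 0.166%, 0.0337% and 0.0153% of all windows. These are matches of letters, not measured binding sites, and duplicated genes share letters by descent.

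Values are the authors' normalized tag counts, a peak signal scaled to library depth, and the lists held 68316 to 84614 peaks per library. Along the main axis of variation over all shared regions (61.5% of variance) controls scored -48.4 to -36.3, dKO 1 scored 63.5, dKO 2 scored 53.6 and dKO 3 scored 12.7, so dKO 3 lay nearest the controls. Peak width was 108 bp in control 1, dKO 1 and dKO 2 and 166 or 172 bp in the rest, which splits both groups. Over all shared regions 11.6% were lower and 8.19% higher in dKO by the test described below. Hepatocyte markers had 31 shared regions, of which 13 were lower and 0 higher, and their summed signal was 1055 to 1133 in control and 657 to 957 in dKO. Markers of Kupffer cells (2 shared regions), endothelial cells (26), stellate cells (11), cholangiocytes (8) and lymphocytes (3) gave 3 higher and 5 lower calls together, and their summed signals overlapped between the groups. No region was found for the Kupffer genes Timd4 and Vsig4, the cholangiocyte genes Cftr, Krt19 and Krt7 or the lymphocyte genes Cd79a, Cd8a and Nkg7. The part of the hepatocyte marker shift in the results below was not tested, and fewer cells of a type and less signal per cell cannot be told apart. The recombination of the floxed alleles was not analysed here.

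Of the 122 shared regions of Cyp1 to Cyp3 genes, 27 were lower and 7 were higher in dKO at an adjusted p under 0.05, where 11.6% of all 51749 shared regions were lower and 8.19% were higher (limma with Benjamini-Hochberg adjustment over all of them). The lower calls came to 22.1% of the shared family regions and the higher calls to 5.74%. The median log2 fold change, dKO minus control, was -0.19 over the family and -0.02 over all regions, and 80 of the 122 values were negative. In 42 regions every dKO value lay below every control value (15.8% of all regions did so), and in 8 every dKO value lay above (12.6%). Of the 27 lower regions 16 belonged to Cyp2d, and the plot of fold changes by subfamily shows both signs in every other subfamily with 5 or more shared regions. Every fold change was taken on log2(value + 1), which understates weak regions. Without dKO 1 the counts were 17 lower and 3 higher, or 13.9% and 2.46% of the family regions, against 3.98% and 3.16% of all regions in that fit. Without dKO 2 they were 13 and 3, or 10.7% and 2.46%, against 2.71% and 2.43% of all regions.

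**Figure D1:**
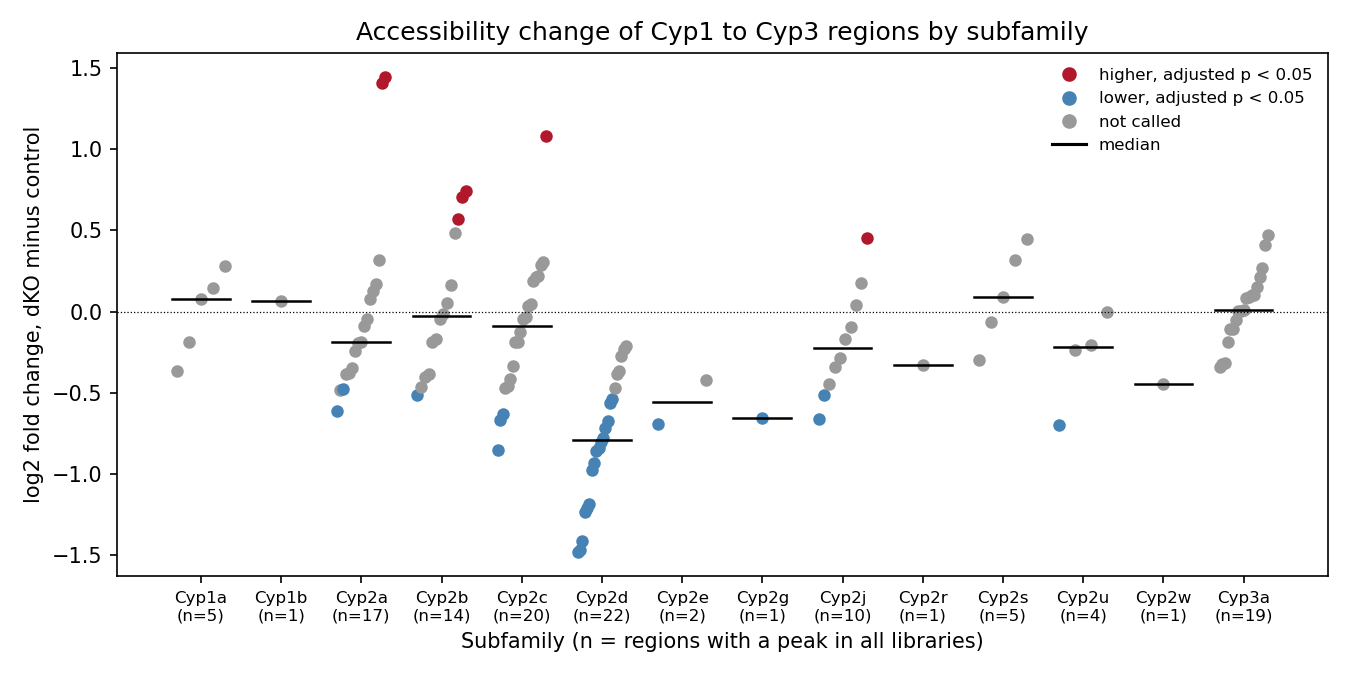
Log2 fold change (y axis, dKO minus control) of each of the 122 regions with a peak in all libraries, by subfamily (x axis, number of regions in brackets); red and blue points passed the test, grey did not, and bars are medians. All 22 Cyp2d points lie below 0, with a median of -0.79, and the 19 Cyp3a points are all grey.

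The Cyp2d genes encode the drug and steroid oxidising subfamily that in humans includes the enzyme of debrisoquine metabolism, and mice carry a cluster of copies on chromosome 15. Of 22 shared regions 16 were lower in dKO and 0 higher, all 22 log2 fold changes were negative (-1.48 to -0.21), and in 18 regions the groups did not overlap. The signal summed over the 22 regions was 570, 584 and 491 in the controls and 263, 238 and 391 in the dKO libraries, which is 548 ± 50 against 297 ± 82 (SD, n = 3 each). Every dKO sum lay below every control sum, and dKO 3 was the highest of the dKO. The same order held region by region: dKO 3 was the highest dKO library in 21 of the 22, against 85 of the 122 family regions. Without it dKO 1 and dKO 2 lay below all controls in all 22, against 66 of the 122. This order is easier to meet with dKO 3 left out, and its share over all regions was not counted. The median log2 fold change was -0.95 among the 108 bp lists alone (dKO 1 and dKO 2 against control 1). It was -0.51 among the wider lists alone (dKO 3 against control 2 and control 3). Peak width and differences between these libraries cannot be told apart.

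Cyp2d9, a male-biased testosterone hydroxylase of mouse liver, had all 3 of its shared regions lower. The region over its start (chr15:82452263-82452454, over the TTTATA printed above) read 46.6, 45.3 and 36.3 in the controls and 11, 11.2 and 22.2 in dKO. All dKO values lay below all control values, at 34.6% of the control mean (log2 fold change -1.47, SE 0.18, limma adjusted p = 0.00075). The regions 8515 and 14246 bp before the start fell by 1.24 and 1.41 on the log2 scale. A further region 2124 bp before the start (chr15:82450140-82450367) had a peak in every control library, at 29.1, 31.5 and 23.7, and in no dKO library. The dKO peak nearest to it was the one over the start.

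Cyp2d10 had 3 of 4 shared regions lower. The region 15926 bp before its start (chr15:82423002-82423238) had the smallest p of the subfamily and read 28.9, 30.0 and 26.7 in the controls and 8.51, 6.59 and 13.3 in dKO. The groups did not overlap, and the dKO mean was 33.2% of the control mean (log2 fold change -1.48, SE 0.17, adjusted p = 0.00062). A neighbour 16471 bp before the start, read at 37.7, 41.0 and 35.5 against 18.6, 16.8 and 28.7, fell by 0.78. Over the start of Cyp2d10 the values were 47.1, 43.7 and 38.6 in control and 23.3, 20.1 and 34.8 in dKO, without overlap (log2 fold change -0.68, SE 0.14, adjusted p = 0.0058), though this call was lost without dKO 2 (adjusted p = 0.052).

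Cyp2d34 and Cyp2d40 had every shared region lower, 3 of 3 and 5 of 5. In Cyp2d34 the log2 fold changes were -1.21, -1.18 and -0.93. Its strongest region (chr15:82641966-82642199) read 43.2, 38.1 and 31.0 in control and 15.1, 15.6 and 25.2 in dKO. In Cyp2d40 they ran from -0.98 to -0.56, the largest at chr15:82763737-82763926 inside the gene span, where controls read 30.6, 30.5 and 27.3 and dKO 11.9, 10.9 and 20.2. Of 6148 genes with at least 3 shared regions, 25 had every one lower (0.407%), and Cyp2d9, Cyp2d34 and Cyp2d40 were 3 of them.

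Cyp2d22, which stands at one edge of the cluster, held the shared region of the subfamily with the highest control mean, inside its span (chr15:82379583-82379796). It read 49.7, 46.4 and 38.5 in control and 27.3, 23.7 and 37.8 in dKO, below without overlap (log2 fold change -0.54, SE 0.13, adjusted p = 0.013; 0.068 without dKO 1 and 0.091 without dKO 2). Cyp2d26 had 1 of 2 regions lower, 1930 bp before its start, with 35.9, 36.8 and 33.8 against 15.8, 15.6 and 25.6 (log2 fold change -0.84). Cyp2d11 (1 region, -0.23) and Cyp2d12 (3 regions, -0.47 to -0.37) did not pass the test. The cluster spans 424 kb, and 5 shared regions inside it that belong to other genes were all lower too, against 1 of 15 shared regions of other genes within 200 kb on its outside. The sequences before the starts of Cyp2d genes were 46.1% to 82.7% identical in pairs. Reads from similar copies may be assigned to the wrong one, so values of single copies are uncertain.

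**Figure D2:**
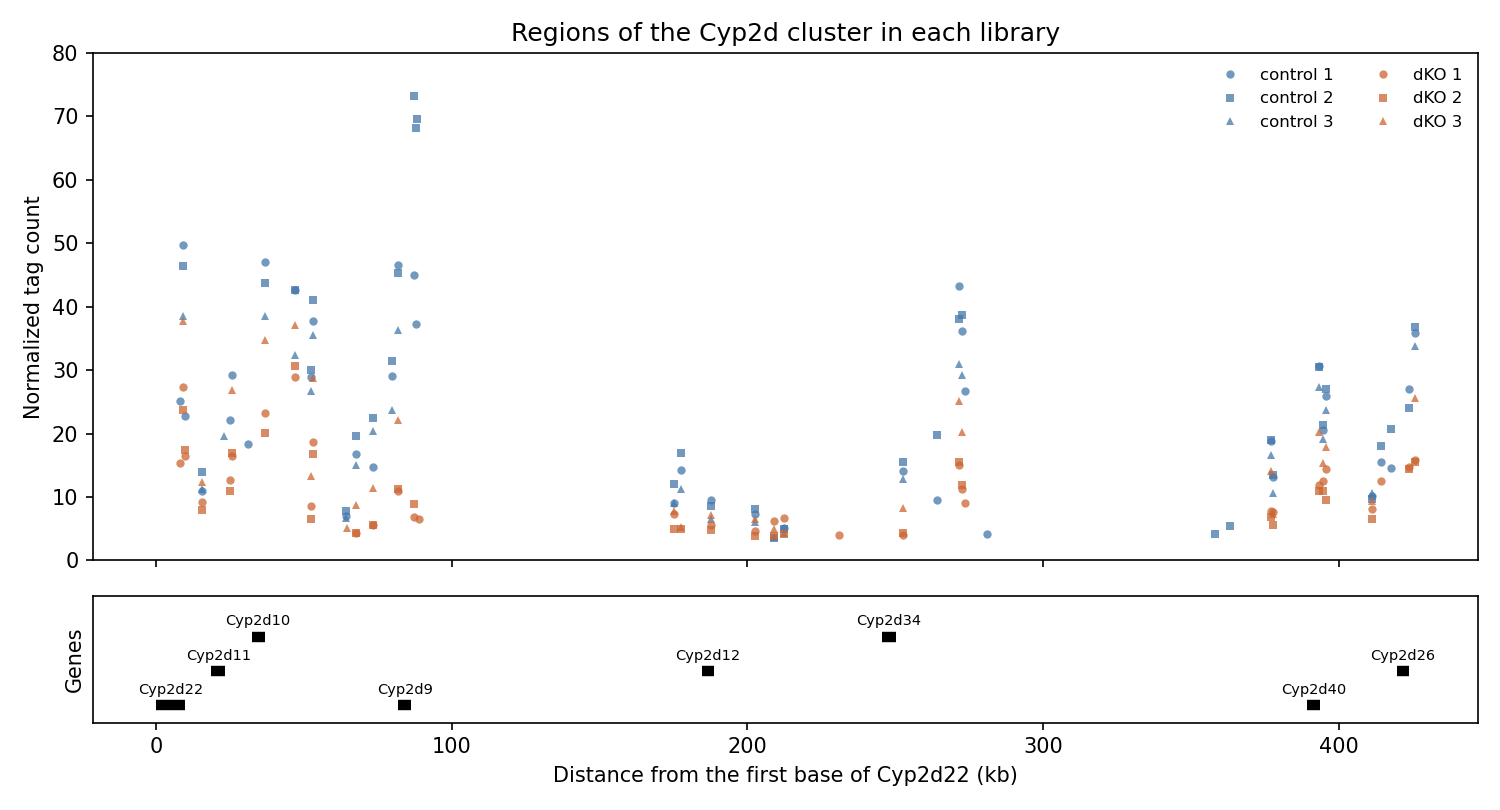
Normalized tag count (y axis) of every region of the Cyp2d cluster in each library, against distance in kb from the lowest-numbered base of Cyp2d22 (x axis), with gene spans below; blue is control, orange dKO, and a library with no peak has no point. In 18 of the 22 shared regions all blue points stand above all orange ones, and the triangle of dKO 3 is the highest orange point in 21.

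Cyp2a enzymes hydroxylate coumarin, nicotine and steroids, and the mouse genes share a cluster on chromosome 7 with Cyp2b, Cyp2f, Cyp2g and Cyp2s. Of 17 shared Cyp2a regions 2 were higher and 2 lower. The 2 higher ones were the largest increases among the shared family regions, and both lay about the same distance past the far end of their gene. At Cyp2a4 (a testosterone hydroxylase, female-biased in mouse liver) the region 935 bp past the end (chr7:26315922-26316125) read 11, 12.3 and 7.57 in control and 33.6, 23.7 and 27.6 in dKO. The lowest dKO value was above the highest control value (log2 fold change 1.45, SE 0.18, limma adjusted p = 0.00075). At Cyp2a5 (the coumarin hydroxylase) the region 901 bp past the end (chr7:26844027-26844304) read 24.7, 41.8 and 18.7 in control and 72.2, 66.7 and 71.1 in dKO, again without overlap (log2 fold change 1.41, SE 0.21, adjusted p = 0.0015). The promoter sequences of Cyp2a4 and Cyp2a5 are 97.6% identical, so the signals of the pair may not be independent.

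At its start Cyp2a5 differed the other way: the region there (chr7:26835190-26835397) had a peak in the 3 control libraries, at 17.0, 17.2 and 13.7, and in no dKO library, and the nearest dKO peak was 5.87 kb away. At Cyp2a4 a further region 319 bp past the end was seen in control only, at 11.8, 11.9 and 11.5, but a peak of dKO 1 lay 194 bp from it. Cyp2a22 had 1 of 8 regions lower, 14279 bp past its end, with 13.6, 18.3 and 13.3 against 9.56, 7.79 and 9.66 (log2 fold change -0.61, SE 0.17, adjusted p = 0.021; up to 0.090 with a library left out). Cyp2a12 had 1 of 5 lower (-0.47), and the region over its start (24.4, 22.6 and 21.7 against 17.6, 12.9 and 19.9) did not pass the test (log2 fold change -0.38, adjusted p = 0.061).

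Cyp2b genes include Cyp2b10, the standard target gene of CAR, and Cyp2b9 and Cyp2b13, female-biased genes of mouse liver. Of 14 shared regions 3 were higher and 1 lower, and none of these 4 calls held without each library in turn. The most open one, 4309 bp before the start of Cyp2b10, read 41.7, 36.3 and 25.7 in control and 31.1, 29.7 and 35.7 in dKO, and the region over the start read 21.0, 21.0 and 21.6 against 17.4, 17.5 and 24.9. The groups overlapped in both (log2 fold changes -0.02 and -0.04). A weak region 19808 bp past the start of Cyp2b10, inside the gene, was higher, with 3.67, 4.79 and 3.92 against 8.57, 6.01 and 6.56 (log2 fold change 0.70, SE 0.16, adjusted p = 0.0098; up to 0.057 without dKO 1). Another, 9704 bp before the start, was lower (13.8, 15.3 and 13.0 against 8.10, 7.16 and 12.7; log2 fold change -0.52, adjusted p = 0.046; up to 0.19 with a library left out).

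Cyp2b13 had 2 of 5 regions higher. The stronger change, inside the gene (chr7:26088652-26088836), read 9.58, 7.80 and 7.79 in control and 16.3, 13.5 and 12.5 in dKO (log2 fold change 0.74, SE 0.18, adjusted p = 0.012; up to 0.077 with a library left out). Cyp2b9 held 2 regions with a peak in every dKO and no control library. The one 12559 bp past its end (chr7:26223064-26223376) read 37.4, 38.7 and 17.7 in dKO, and the nearest control peak was 21.75 kb away. The one inside its span (chr7:26195991-26196165) read 16.3, 14.8 and 9.96, and the nearest control peak was 4.98 kb away. These libraries give no fold change for either, since a site with no peak has no value. The promoter sequences of Cyp2b9 and Cyp2b13 are 99.2% identical. Reads may be assigned to the wrong copy, so values at either gene are uncertain.

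**Figure D3:**
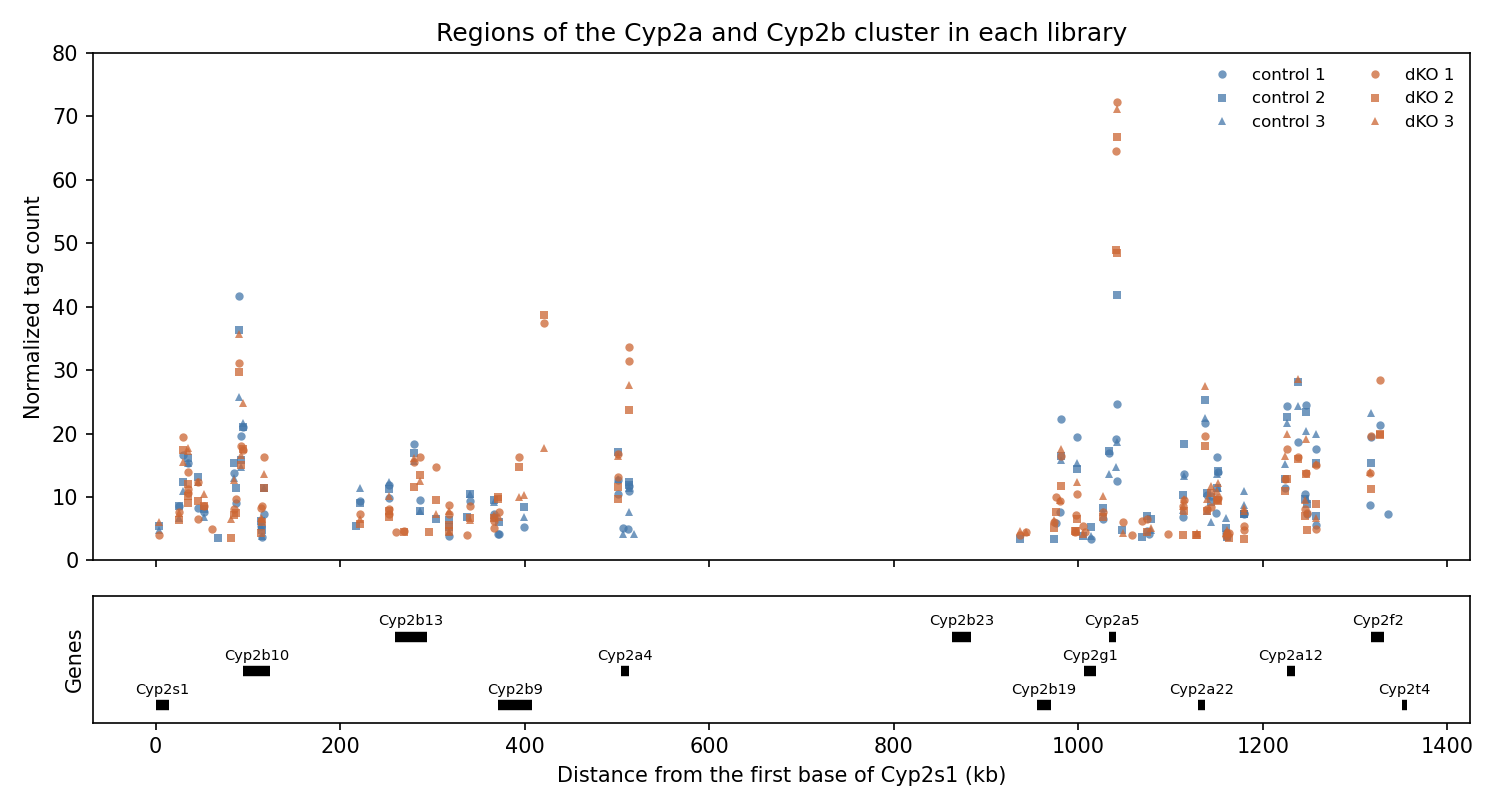
Normalized tag count (y axis) of the regions of Cyp2a, Cyp2b, Cyp2f, Cyp2g and Cyp2s genes in each library, against distance in kb from the lowest-numbered base of Cyp2s1 (x axis), with gene spans below; blue is control, orange dKO, and a library with no peak has no point. Orange points rise to 72.2 past Cyp2a5, to 33.6 past Cyp2a4 and to 38.7 beyond Cyp2b9.

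The Cyp1a genes, the classic targets of AHR, had 5 shared regions and no call. The most open one, 7134 bp past the end of Cyp1a2, read 37.6, 40.5 and 33.4 in control and 29.8, 24.9 and 40.3 in dKO, with overlap (log2 fold change -0.19, adjusted p = 0.32). A region 101 bp outside the span of Cyp1a1 read 23.3, 32.0 and 23.8 against 34.7, 25.6 and 31.9 (0.28, adjusted p = 0.18). Over the start of Cyp1a2, an enzyme of caffeine oxidation, controls had a peak of 23.6, 25.7 and 18.7 and no dKO library had one (chr9:57683595-57683782). The nearest dKO peak was 2.38 kb away, in 1 library. Cyp1b1, mostly an enzyme of other tissues, had 1 shared region, 747 bp before its start, with 16.6, 20 and 19.9 against 16.7, 16.4 and 24.2 (0.06).

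Cyp3a enzymes include Cyp3a11, the main target gene of PXR in mouse liver, and their genes form a cluster on chromosome 5. None of 19 shared regions passed the test, with log2 fold changes from -0.34 to 0.47 and a median of 0.01. Over the start of Cyp3a11 (chr5:145879784-145879978) the values were 20.2, 22.5 and 10.2 in control and 21.8, 17.3 and 26.7 in dKO, which overlap (log2 fold change 0.41, SE 0.23, adjusted p = 0.21). Of the shared regions the one with the highest control mean, 32108 bp before that start, read 25.3, 27.4 and 24.0 against 23.9, 18.2 and 26.4 (-0.11). The region over the start of Cyp3a13 (20.8, 16.5 and 16.4 against 16.7, 10.3 and 14.2) overlapped too (-0.31, adjusted p = 0.20). Over the start of Cyp3a25 (chr5:146009578-146009813) there was a peak of 21.8, 25.9 and 19.8 in control and none in dKO, with the nearest dKO peak 8.54 kb away. A region 1583 bp before the start of Cyp3a11 was likewise seen in control only, at 12.0, 13.4 and 6.50, and one 13781 bp past the end of Cyp3a16 in dKO only, at 7.29, 6.43 and 5.53. Promoter sequences were 94.8% identical between Cyp3a25 and Cyp3a59 and 92.9% between Cyp3a16 and Cyp3a44. Reads may be assigned to the wrong copy, so values at these genes are uncertain.

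Cyp2c is the largest subfamily here, with 102 regions of 15 genes, of which 20 were shared, 1 was higher and 3 were lower. The higher one, 48847 bp before the start of Cyp2c69 (chr19:39935511-39935722), read 6.28, 4.26 and 6.73 in control and 11.4, 12.8 and 13.4 in dKO without overlap (log2 fold change 1.08, SE 0.18, adjusted p = 0.0025). The lower one with the smallest p lay inside Cyp2c67 (chr19:39644618-39644876), with 16.6, 13.2 and 15.4 against 7.87, 6.48 and 8.20 (-0.85, SE 0.16, adjusted p = 0.0036). The region over the start of Cyp2c37 was lower as well, with 8.83, 10.3 and 12.8 against 6, 4.02 and 8.57 (-0.67, adjusted p = 0.024; up to 0.15 with a library left out). Over the start of Cyp2c29, an abundant CAR target, the groups overlapped at 12.7, 11 and 9.31 against 12.1, 9.98 and 14.3 (0.19). The shared region with the highest control mean, 577 bp from the span of Cyp2c23, an arachidonic acid epoxygenase, read 26.6, 31.7 and 28.1 against 20.9, 19.8 and 33.5 (-0.19). Inside Cyp2c50 a region was seen in control only, at 6.01, 7.18 and 7.85.

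Cyp2j5, an arachidonic acid epoxygenase, held the shared region over a start with the highest control mean. Over its start (chr4:96664071-96664303) the values were 56.3, 64.8 and 66.6 in control and 35.0, 35.9 and 56.7 in dKO. Only dKO 3 reached the controls, and the region was lower (log2 fold change -0.52, SE 0.13, adjusted p = 0.017; up to 0.092 with a library left out). A region 1099 bp before the start read 40.6, 44.8 and 44.7 against 24.2, 20.1 and 35.4 without overlap (-0.66, SE 0.13, adjusted p = 0.0052). A weak region 14513 bp before it was higher, with 3.89, 4.69 and 4.15 against 6.24, 5.54 and 5.83 (0.45, adjusted p = 0.041; up to 0.17 with a library left out).

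Cyp2e1, which oxidises ethanol, had 2 shared regions. The one 14965 bp before its start was lower, with 14.7, 10.9 and 16.7 against 7.11, 7.68 and 8.81 (log2 fold change -0.69, SE 0.18, adjusted p = 0.017; up to 0.078 with a library left out). The one 7196 bp before it read 23.6, 15.7 and 20 against 13.3, 11.6 and 16.5, overlapping (-0.42, adjusted p = 0.080). Cyp2g1 had 1 shared region, 7676 bp outside its span, lower at 10.5, 6.59 and 12.4 against 19.5, 14.4 and 15.4 in control (-0.65, adjusted p = 0.022; up to 0.13 with a library left out). Cyp2u1, a fatty acid hydroxylase, had 1 of 4 regions lower (22.1, 22.2 and 16.0 against 14.1, 8.05 and 12.7; -0.70, adjusted p = 0.017; up to 0.11 with a library left out). The shared region with the highest control mean of the whole family, 7053 bp outside the Cyp2u1 span, read 70.8, 75.9 and 67.6 against 55.5, 51.8 and 67.4 and did not pass the test (-0.24, adjusted p = 0.12).

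Cyp2r1, a hydroxylase of vitamin D, read 49.4, 41.9 and 42.9 over its start in control and 33.2, 30.3 and 38.6 in dKO. The groups did not overlap, but the adjusted p was 0.055 (log2 fold change -0.33). Cyp2w1 had 1 shared region, with 33.8, 30.9 and 40.2 against 22.2, 18.5 and 34.4 (-0.44, adjusted p = 0.053). None of the 5 shared Cyp2s1 regions passed the test. The one with the highest control mean, 21573 bp before its start, read 15.4, 16.1 and 15.3 against 10.7, 9.09 and 17.3 (-0.30), and a region 241 bp from it was seen in dKO only, at 14.0, 12.1 and 17.7. Cyp2f2 had no shared region. Over its start the values were 19.4, 15.3 and 23.3 in control and 19.6 and 11.3 in dKO 1 and dKO 2, with no peak in dKO 3. In the fit below that adds partly seen regions it did not pass the test (log2 fold change -0.19).

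Regions seen in all libraries of 1 group and none of the other numbered 8 for dKO (1.57% of all regions were of this kind) and 14 for control (1.34%). Without control 1 the dKO count was 13, without control 2 it was 14 and without dKO 3 it was 22, and without control 3 the control count was 23. Such counts cannot fall when fewer libraries are asked for, and their shares over all regions were not counted. Of the 35 family regions that overlapped any gene's window from 250 bases before to 50 after a start, 18 were shared. Of these 4 were lower (22.2%) and 0 higher, where 11.3% of the 8133 such shared regions of all genes were lower and 2.24% higher. Of the 35 regions, 4 were control-only and 1 was dKO-only. The control-only share was 11.4%, against 0.341% of the 11441 such regions of all genes, of which 52 were dKO-only. Peaks in all 6 libraries were found in 51.4% of these family regions and in 71.1% of those of all genes. Peaks in part of the libraries, of any kind, were thus more frequent in the family. The control-only regions are the starts of Cyp1a2, Cyp2a5, Cyp3a25 and Cyp2c39, the last a weak peak (4.10, 6.22 and 6.67) over the outer of its 2 starts. The inner start of Cyp2c39 kept a peak in all 6 libraries (10.6, 10.4 and 13.8 against 10, 7.84 and 12.6). The peak finder asks for a local fold of at least 4, so the lack of a peak at a start does not show closed chromatin.

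The places past the far ends were examined after the values at Cyp2a4 and Cyp2a5 had been seen. Of 29 family regions up to 2 kb past a far end, 2 were shared. These are the same Cyp2a4 and Cyp2a5 regions, so that both were higher was known beforehand. Over all genes 75 of 827 such shared regions were higher (9.07%), a share given as background only. Most of the 29 had a peak in part of the libraries, so the strongest peak per library in this stretch was read for each gene. Past Cyp3a11 it was 9.10 and 23.5 in control 1 and control 2 with none in control 3, and 56.7, 47.1 and 56.7 in dKO. Past Cyp3a25 it was 12.9 and 49.9 with none in control 3, and 84.1, 70.2 and 64.6 in dKO. Past Cyp2d9 it was 45.0 and 73.2 with none in control 3, and 6.88 and 8.83 with none in dKO 3. Control 3 and dKO 3 are the 172 bp lists. Of 15 genes with a region there, dKO was above control past 4 (Cyp2a4, Cyp2a5, Cyp3a11 and Cyp3a25) and below it past 3 (Cyp2d9, Cyp2c37 and Cyp2e1). Cyp2c37 (8.83 against 3.71 and 7.23) and Cyp2e1 (51.7 against 31.0 and 51.2) each rest on 1 control and 2 dKO libraries. Past 4 genes only control libraries had a peak (Cyp2c50, Cyp2c68, Cyp2d10 and Cyp2d26), in 1 library each for Cyp2c68 and Cyp2d10. Past 3 only dKO libraries had one (Cyp1a1, Cyp2a22 and Cyp3a59), in 1 library for Cyp3a59. Past Cyp1a2 the groups overlapped. The shares of these orders over all genes were not counted, so the numbers of genes describe these places only.

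**Figure D4:**
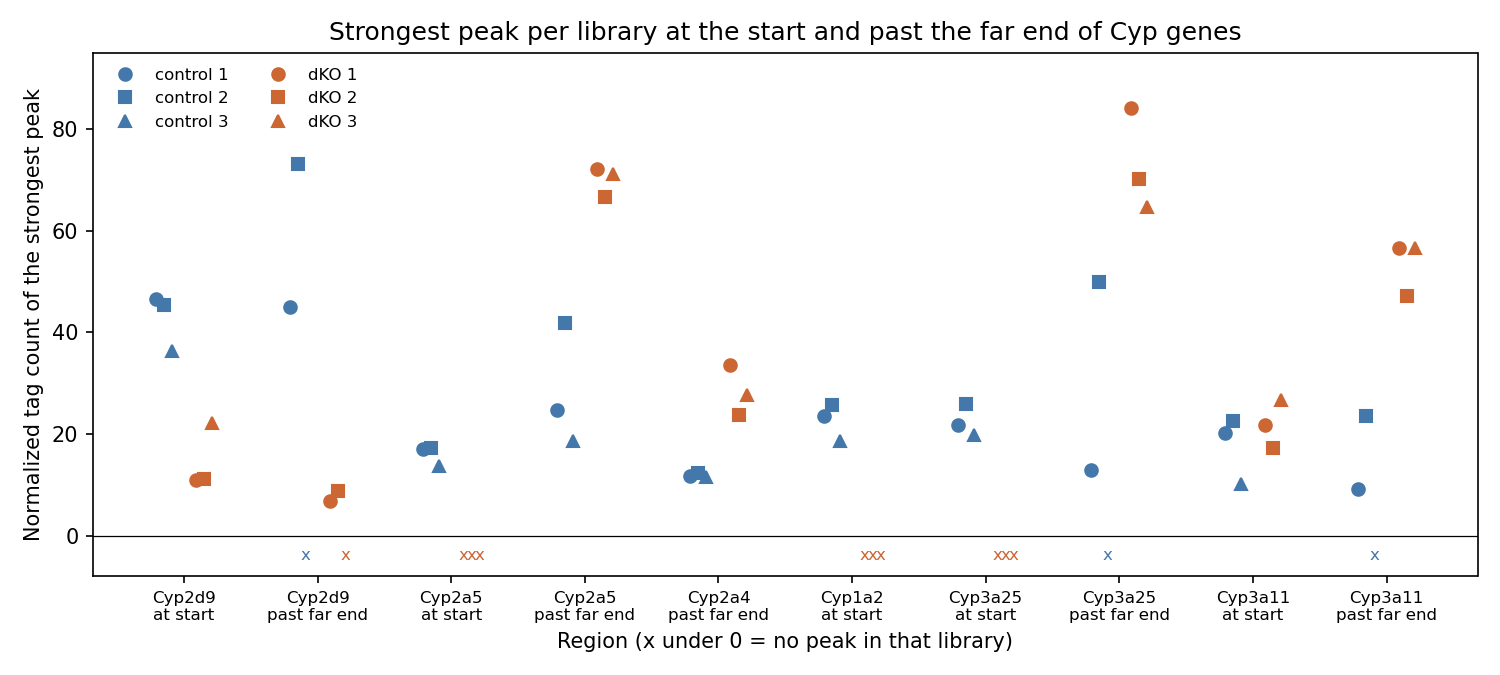
Normalized tag count of the strongest peak per library (y axis) over the start of a gene or within 2 kb past its far end (x axis), blue for control and orange for dKO; an x under the line marks a library with no peak. Past Cyp2a4, Cyp2a5, Cyp3a11 and Cyp3a25 the orange points stand above the blue ones, past Cyp2d9 below them, and over the starts of Cyp2a5, Cyp1a2 and Cyp3a25 only blue points appear. The places shown were picked after their values were seen, and most starts with a region are not drawn. Over all family starts with a region, the groups overlapped at 14, and dKO lay above at 3 and below at 10. At 4 starts dKO had no peak.

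Regions with peaks in at least 2 libraries of each group were also added to the fit, which leaves out the missing libraries. Then 33 further family regions could be tested, and 2 were higher and 4 lower. Of all 62576 regions in that fit 7.67% were higher and 10.4% lower, but these include the 51749 shared regions. The share among the added regions alone was not counted. The region past Cyp3a11 (chr5:145853097-145853338) was higher by 1.76 on the log2 scale (SE 0.26, limma adjusted p = 0.0021), with 9.10 and 23.5 against 50.7, 44.7 and 56.7. One inside Cyp2c29 (chr19:39302959-39303167), with 6.33 and 10.2 against 14.8, 15.3 and 21.3, was higher by 1.04 (adjusted p = 0.0072). The largest lower value was past Cyp2d9 (chr15:82457822-82457988), with 45.0 and 73.2 against 6.88 and 8.83 (-2.59, SE 0.24, adjusted p = 0.00051). The others were at Cyp2d12 (-1.22), over the start of Cyp2d26 (-0.63; 27.0 and 24.1 against 14.7 and 14.4) and at Cyp2c67 (-0.79).

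Regulators and electron-transfer partners of the family were taken as a list of 28 genes. Of their 126 shared regions 33 were lower and 7 higher, where 11.6% and 8.19% of all shared regions were, and their median log2 fold change was -0.21. Among receptors, Nr1i2 (PXR) had 2 of 3 regions lower, the stronger change at 51.8, 62.5 and 53.2 against 34.7, 29.9 and 44.4 (-0.56, limma adjusted p = 0.0064), Nr1i3 (CAR) had 0 of 1 and Ahr had 1 of 3 lower. Cebpa, a hepatocyte transcription factor, had 4 of 5 lower (largest -0.97), and Hnf4a 2 of 6. Ppargc1a, the coactivator of fasting metabolism, had 9 of 15 lower. Of the electron donors, Por had 2 lower and 1 higher of 7, and Cyb5a 3 of 7 lower. Stat5b, which carries the growth hormone signal to sex-biased Cyp genes, had 0 of 8 called. Bcl6 and Cux2, other factors of that response, had 1 higher region each, of 3 and 5 shared regions.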

How the data were processed

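3 control and 3 dKO ATAC-seq libraries of liver nuclei were compared, grouped by their titles. Per the submitters' processing notes, Trim Galore 0.6.4, Picard, SAMtools 1.10 and HOMER 4.11 were used on mm10; for the aligner, read filters, cut-site shift and peak options the sources used here name nothing. The authors deposited 1 peak list per library, not pooled, in the HOMER peak finder layout, per the file headers. The deposited normalized tag count, a signal scaled to library depth, was the value analysed. The deposited peak score served only to filter peaks. The deposited focus ratio (a fraction), fold over the surroundings (a ratio) and p-value were not compared. The sources used here do not state the depth in reads, so no counting interval was computed.

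Regions were built as stated above, and a region's value in a library was its highest peak there. Regions with a peak in all 6 libraries were tested as log2(value + 1), centred on each library's median, with limma 3.58.1 (lmFit, eBayes with trend, group as the only term) in R 4.3.3, 2-sided, with Benjamini-Hochberg adjustment over 51749 regions and a threshold of 0.05. The fit was tested on simulated data. Exact permutation of 3 against 3 libraries cannot go below p = 0.1, so no exact test is given for single regions. Gene spans and sequences are RefSeq's on GRCm38.p6 (the mm10 build), and exons and introns were not analysed here. Distances run to the start in the promoter table, or to the span where a gene has none.

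Named regions are, per subfamily, the shared region with the highest control mean, the called ones with the smallest p in each direction, strong regions of 1 group only, and those near the ends of 10 known genes; other regions named were chosen after their values were seen. The members, lists and tests were chosen with earlier results of these data known. Alternatives covered scaling, pseudocount, low values, peak score, merging, link distance, peak width, a replicate block and each library left out.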

Additional observations from a re-analysis of the deposited data

How the results depend on the processing

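All 34 calls kept their direction in every alternative that tested them, and 16 passed the threshold in every processing alternative that tested them, the split by peak width below apart: 11 of the 16 in Cyp2d, and the regions of Cyp2a4, Cyp2a5, Cyp2c69, Cyp2c67 and Cyp2j5 (1099 bp before the start). Higher and lower counts were 1 and 10 with a mean value of at least 20 (30 regions tested), 1 and 7 with peaks in the upper part of each list by score (37 tested), and 4 and 16 with links within 10 kb (84 tested), where fewer regions entered. Leaving out each library gave 3 to 9 higher and 13 to 31 lower, and all 34 calls remained without dKO 3, 20 without dKO 1 and 16 without dKO 2. Within the 108 bp lists, an alternative added after seeing the data, limma called 8 higher (7.8% of all regions) and 27 lower (14.5%). Within the 166 or 172 bp lists, also added, it called 0 and 0 (26 family regions and 7516 of all regions at an unadjusted p under 0.05), and a test of the difference between the width classes also called 0 (9 and 5393). Leaving out each library gave 8 to 22 dKO-only and 14 to 23 control-only regions, and links within 10 kb gave 3 dKO-only. The matching shares over all regions were not counted. With the replicate block the counts were 9 higher and 33 lower and all 34 calls remained; the deviations of same-numbered libraries correlated at 0.146, -0.032 and 0.234, and dKO 2 correlated best with control 1, so the numbers were not taken as pairs. The median log2 fold change of the family ran from -0.24 to -0.14 with a library left out. Depth in reads was not given, so its limit on weak regions was not analysed here.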
